A study of Papio anubis with 60 samples.

Results

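H3K4me3 domains that carried H3K27me3 in baboon embryonic stem cells (ESC) but had no H3K27me3 peak in baboon induced pluripotent stem cells (iPSC) are described here. Of 30730 H3K4me3 domains on chromosomes 1 to 20, 722 met this rule, which is 2.35% of the domains. A domain was made by joining the H3K4me3 peaks of both cell types that lay within 1 kb of each other, and was kept at a width of at least 2 kb. A member had an H3K4me3 peak in both lists, was covered over at least 25% of its length by ESC H3K27me3 peaks, and was overlapped by no iPSC H3K27me3 peak. The members were thus chosen by their H3K4me3 and H3K27me3 peaks in both cell types, and the values of those marks at the members are a description. H3K27ac and H3K9me3 were not used by the rule.

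H3K4me3, trimethylation of lysine 4 of histone H3, marks active and poised promoters, and H3K27me3 is written by Polycomb repressive complex 2 at genes that are held silent. A promoter with both marks is called bivalent, a state known from pluripotent cells at many genes of development, which keep little expression until differentiation resolves the state to either mark alone. H3K27ac marks active promoters and enhancers and sits on the same lysine as H3K27me3, so that a single histone tail cannot carry both. H3K9me3 marks constitutive heterochromatin and silenced repeats.

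The chromatin came from Papio anubis cells: ESC of the lines B4 and B15, and iPSC, which are somatic cells reprogrammed to pluripotency, of the lines 160-2 and M14939#3. All were cultured on feeder cells, and chromatin immunoprecipitation with sequencing was run after digestion with micrococcal nuclease, per the labels. The 60 libraries form 10 groups of 6, a group being 3 replicates of each of 2 lines for a cell type and a mark or input, and 12 libraries are inputs. The data used are 8 peak lists. Each mark has 1 list in each cell type, so a list has no replicate. No difference between the lists could be tested against the spread between cultures, and cell type and line cannot be told apart. The depth behind the lists is unknown. Percents of domains are given with 95% Wilson intervals and differences between percents with 95% Newcombe intervals. Both cover counting error alone, and neighbouring domains are not independent of each other.

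The members were a small share of the bivalent domains of ESC. In ESC, 6744 domains (21.9% of all) had H3K4me3 in both lists and H3K27me3 over at least 25% of the length. Of these 6744 domains, 4436 (65.8%) also had iPSC H3K27me3 over at least 25%, and 1586 (23.5%) had iPSC H3K27me3 over a smaller share. The remaining 722 (10.7%) had none and are the members. The reverse rule, bivalent in iPSC with no ESC H3K27me3 peak, held for 1175 domains. The iPSC H3K27me3 list was the longer of the pair, with 131632 peaks (90.1 Mb) on these chromosomes against 51150 (53.9 Mb) in ESC. Cutting the longer list by its −log10 q to the length of the shorter raised the number of members to 1872.

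Members were narrower than the domains bivalent in both, and their ESC H3K27me3 was shorter and weaker. Their median width was 2808 bp, with quartiles of 2320 and 3647 bp and a maximum of 9627 bp, against medians of 4070 bp for domains bivalent in both cell types and 3031 bp for all domains. Domains bivalent in iPSC only (2706 bp) and those without H3K27me3 (2702 bp) had lower medians than the members. Since no iPSC H3K27me3 peak may overlap a member, the rule itself favours narrow domains. By width, 415 members (57.5%) were 2 to 3 kb, 247 (34.2%) were 3 to 5 kb and 60 (8.31%) were 5 kb or more. ESC H3K27me3 covered a median of 38.4% of a member and 81.7% of a domain bivalent in both. The 1586 ESC-bivalent domains with a small share of iPSC H3K27me3 lay between, with a median coverage of 44.5% and a median width of 3595 bp. Coverage was 25 to 50% in 528 members, 50 to 75% in 142 and 75% to under 100% in 39, and 13 members were covered whole.

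The ESC mark was also weaker at members, a description from the list that chose them. The authors' −log10 q of the strongest ESC H3K27me3 peak had a median of 2.66 at members and 7.83 at domains bivalent in both, within the same ESC list. The authors' fold enrichment of that peak had medians of 3.26 and 5.08. ESC-bivalent domains with a small share of iPSC H3K27me3 lay between, with medians of 3.88 for −log10 q and 3.72 for fold. A −log10 q of at least 2 was reached by 549 members (76.0%), of at least 3 by 282 (39.1%), of at least 5 by 52 (7.20%) and of at least 10 by 9 (1.25%). In domains bivalent in both, 98.8%, 92.9%, 75.6% and 33.2% reached these limits. Ranking the 6744 ESC-bivalent domains by this −log10 q and dividing them into 5 equal groups, members were 34.5% (95% interval 32.0 to 37.0%) of the lowest group, then 14.6%, 3.04% and 0.815%, and 0.593% of the highest. Ranked by ESC coverage, the shares fell from 27.6% in the lowest group through 16.6%, 6.30% and 1.93% to 1.11%. Ranked by width they ran from 21.6% in the narrowest group through 15.1%, 8.45% and 6.52% to 1.85% in the widest. A wider domain has more room for an iPSC H3K27me3 peak, so a fall with width is favoured by the rule.

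**Figure D1:**
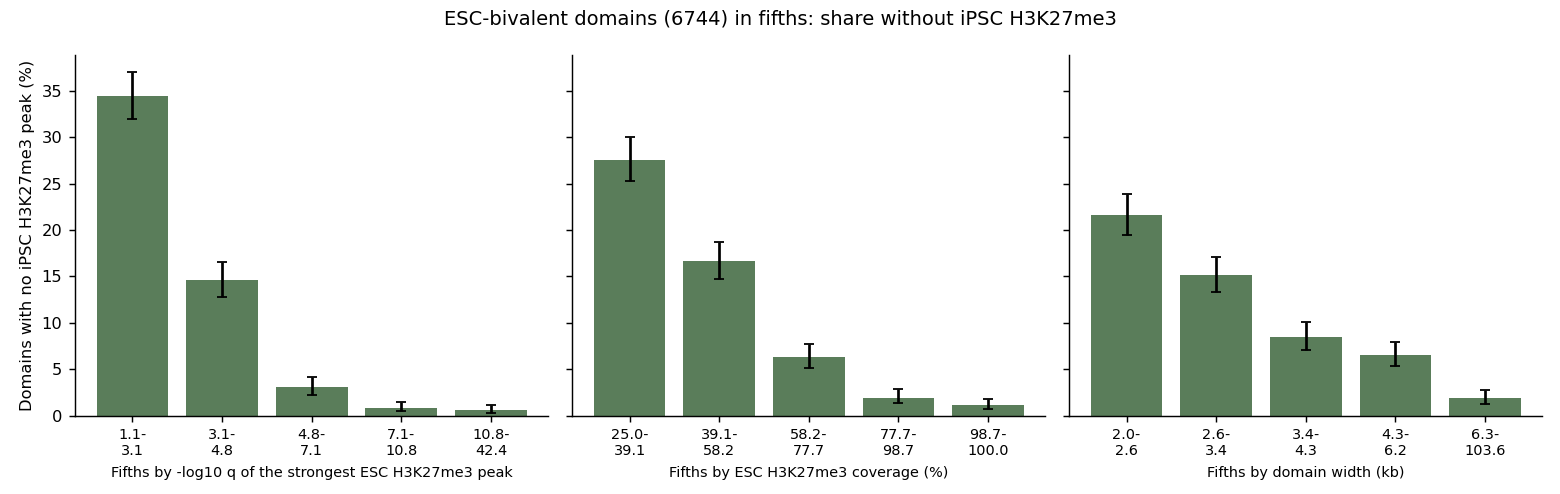
Share (%) of the 6744 ESC-bivalent domains without an iPSC H3K27me3 peak, in 5 equal groups by the −log10 q of the strongest ESC H3K27me3 peak (left), by ESC H3K27me3 coverage in % (middle) and by domain width in kb (right); axis labels give the lowest and highest value of each group and bars carry 95% Wilson intervals. The share fell from 34.5% to 0.593% along −log10 q, from 27.6% to 1.11% along coverage and from 21.6% to 1.85% along width. The fall along width is favoured by the rule, as wider domains have more room for an iPSC peak.

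ESC H3K27me3 at members reached the edges of the H3K4me3 domain less often than at domains bivalent in both. In 336 members (46.5%) no H3K27me3 peak reached either edge of the domain, in 298 (41.3%) 1 edge was reached, and in 88 (12.2%) both were. Among domains bivalent in both, 11.4% had neither edge reached and 53.4% had both. ESC-bivalent domains with a small share of iPSC H3K27me3 lay between and nearer the members, at 32.2% and 21.2%. The mark was 1 peak in 322 members, 2 peaks in 316 and 3 or more in 84. In 709 members (98.2%) the ESC H3K27me3 and H3K4me3 peaks shared base pairs. H3K4me3 peaks held 68.4% of the members' ESC H3K27me3 base pairs and 67.0% of all their base pairs, so H3K27me3 lay on H3K4me3 about as often as any stretch of these domains did. A peak list pools many cells, and shared base pairs do not place both marks on 1 nucleosome.

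Joining ESC H3K27me3 peaks within 3 kb gave the Polycomb domain to which each member belonged. Its median width was 3154 bp for members and 8400 bp for domains bivalent in both. For ESC-bivalent domains with a small share of iPSC H3K27me3 the median was 4553 bp. The Polycomb domain was under 5 kb for 528 members, 5 to 10 kb for 111 and 10 kb or more for 83. An iPSC H3K27me3 peak lay elsewhere in that same Polycomb domain for 25 of the 528, 30 of the 111 and 76 of the 83, 131 members (18.1%) in all. Members in wide Polycomb domains were thus mostly places where the iPSC mark was missing at the H3K4me3 domain and present nearby in the same stretch.

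The nearest iPSC H3K27me3 peak was a median of 7504 bp away from a member, with a range of 43 to 181474 bp. It lay within 1 kb of 80 members (11.1%), within 5 kb of 265 (36.7%), within 10 kb of 419 (58.0%) and within 50 kb of 692 (95.8%). For the 13200 domains with no H3K27me3 peak in either list, the median distance was 10747 bp, and 4.36%, 27.5%, 47.5% and 93.7% lay within these limits. The 2375 domains with ESC H3K27me3 under 25% and none in iPSC had a median distance of 8263 bp, close to that of members. Asking for no iPSC H3K27me3 peak within 5 kb left 457 members.

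The 9 members with the strongest ESC peaks (−log10 q of 10.3 to 22.2) were all close to an iPSC H3K27me3 peak, at 536 to 1867 bp. Their Polycomb domains were 9846 to 41358 bp wide, and all 9 of these held an iPSC H3K27me3 peak. They were 2072 to 3976 bp wide themselves, and 2 of the 9 had an H3K27ac peak in each list. None of these strong members was an isolated ESC site: each sat in a Polycomb domain that iPSC marked in part.

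**Figure D2:**
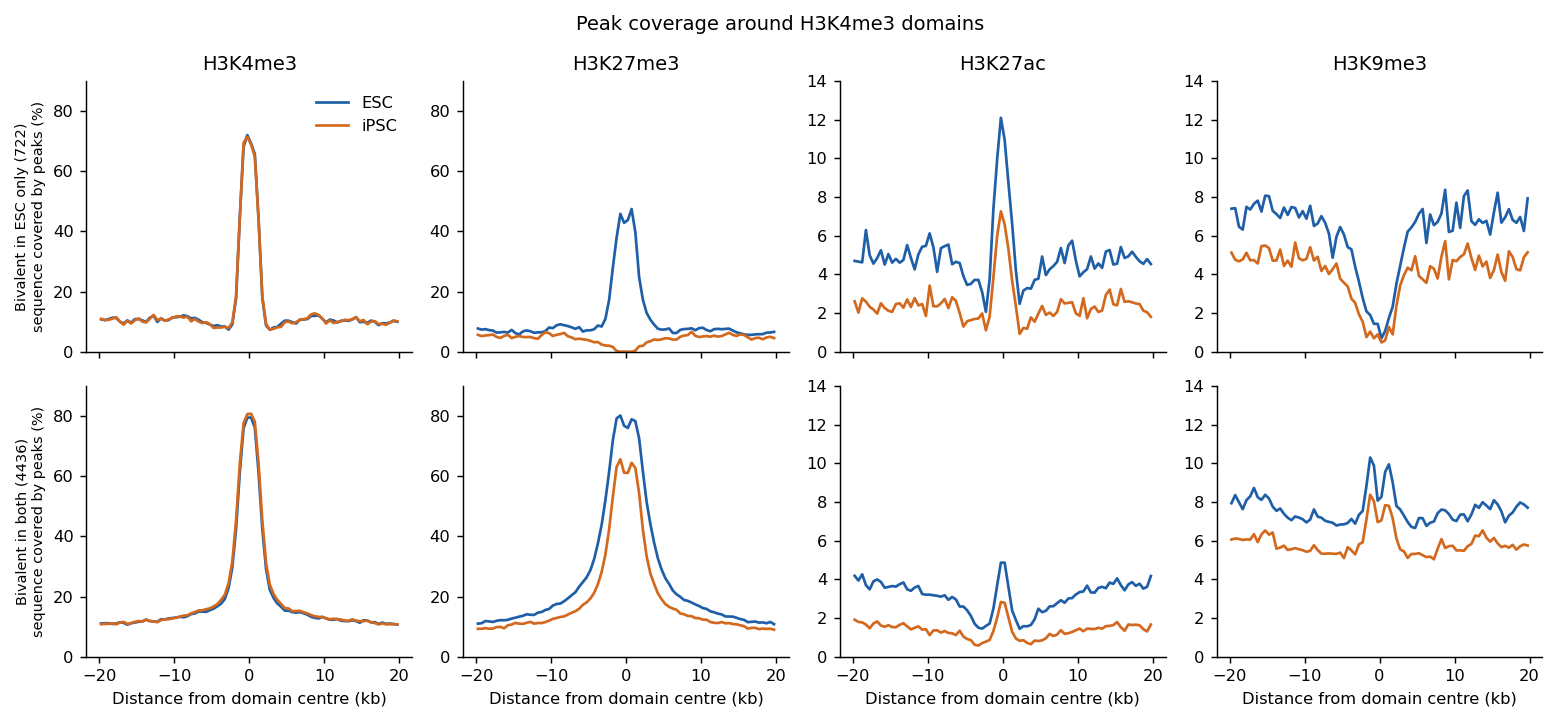
Percent of sequence covered by peaks of each mark in 500 bp bins within 20 kb of the domain centre, for ESC (blue) and iPSC (orange), at the 722 members (top) and the 4436 domains bivalent in both cell types (bottom); the scales of the 4 marks differ. At the members' centres ESC H3K27me3 covered 43.3% and iPSC H3K27me3 0%, which the rule set. The H3K4me3 curves of both cell types lie on each other at members. H3K9me3 dips at the centre of members and H3K27ac peaks there. Domains without H3K27me3, which are not drawn, also had less H3K9me3 at the centre.

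Away from the domain, where the rule did not reach, the H3K27me3 lists came nearer each other, with ESC still the higher. At 15 to 20 kb from the members' centres, ESC peaks covered 6.47% of the sequence and iPSC peaks 4.99%. At that distance the values were 11.7% and 9.64% for domains bivalent in both, and 2.26% and 2.87% for domains without H3K27me3. At domains bivalent in both, the central coverage was 76.5% in ESC and 61.2% in iPSC.

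H3K4me3 itself, whose presence the rule required, covered members to the same extent in both cell types. Its median coverage was 69.0% in ESC and 69.6% in iPSC, and the median difference, iPSC minus ESC, was 0.31 percentage points with quartiles of −7.81 and 8.03. Coverage was higher in iPSC at 372 members (51.5%, against 58% of all domains) and higher in ESC at 347 (48.1%, against 42% of all domains), and 3 were equal. It was at least 10 points higher in iPSC at 141 members (19.5%, against 28.2% of all domains) and at least 10 points higher in ESC at 139 (19.3%, against 17.3%). The domains without H3K27me3 had a median difference of 4.50 points toward iPSC, and those bivalent in both one of 2.52 points. Members without an iPSC H3K27me3 call thus showed no common shift of H3K4me3 coverage in either direction. Within the ESC list, the authors' fold enrichment of the strongest H3K4me3 peak had a median of 7.90 at members, between 5.25 at domains without H3K27me3 and 10.04 at those bivalent in both. Within the iPSC list the order was the same, with 6.92 at members, 5.49 and 8.36.

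**Figure D3:**
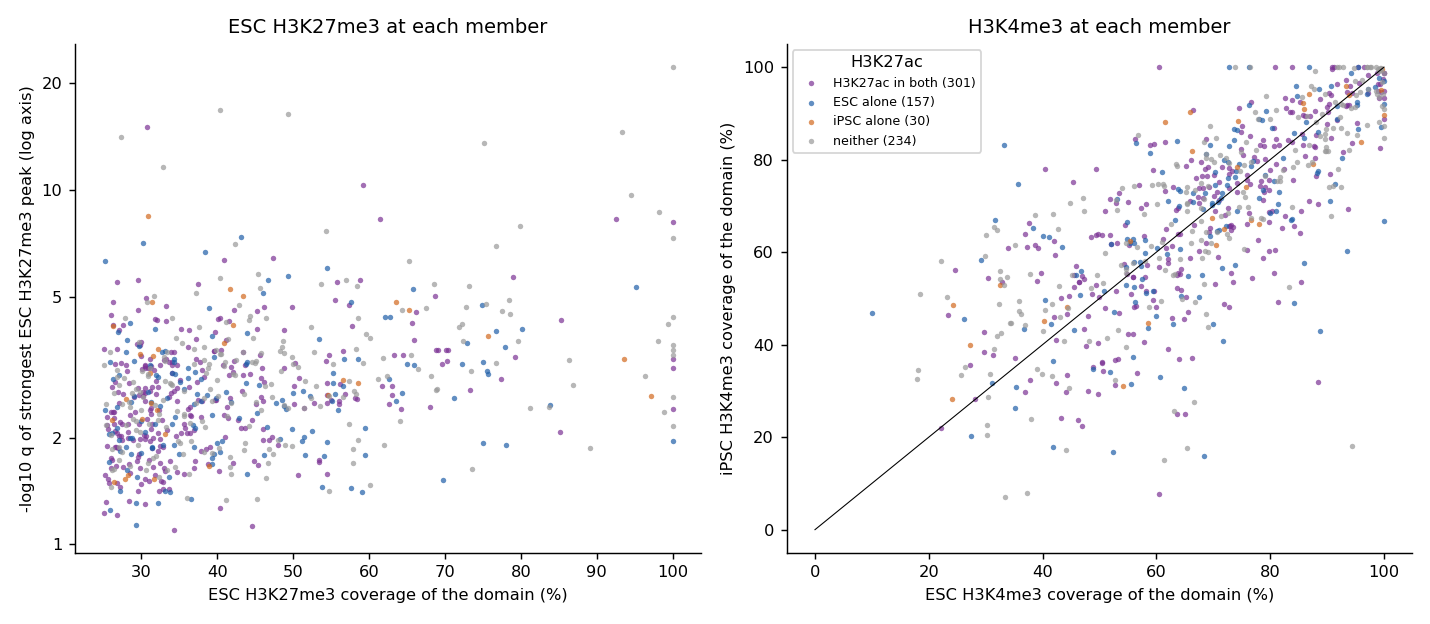
Each point is 1 of the 722 members, coloured by the lists that hold an H3K27ac peak there. Left, ESC H3K27me3 coverage (%) against the −log10 q of the strongest ESC H3K27me3 peak on a log axis, where 528 members lie between 25 and 50% coverage and 9 lie at a −log10 q of at least 10; right, H3K4me3 coverage (%) in ESC against iPSC with the line of equality, where points lie on both sides of the line (372 above and 347 below).

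Acetylation of H3K27 was common at members in ESC, where they also carried H3K27me3, and was less common in iPSC. An ESC H3K27ac peak overlapped 458 members (63.4%, interval 59.9 to 66.9%), against 78.9% of all domains. An iPSC H3K27ac peak overlapped 331 (45.8%, interval 42.2 to 49.5%), against 66.4% of all domains. H3K27ac was in both lists at 301 members (41.7%, against 64.3% of all domains), in ESC alone at 157 (21.7%, against 14.6%), in iPSC alone at 30 (4.16%, against 2.03%) and in neither at 234 (32.4%, against 19%). Members that differed between the lists thus had the H3K27ac peak in ESC more often than in iPSC. This order was not particular to them, as all domains showed it (14.6% in ESC alone and 2.03% in iPSC alone). The ESC H3K27ac list was also the longer one, with 376101 peaks on these chromosomes against 213657 in iPSC, and its part in the lower iPSC share was not tested. H3K27ac covered at least 10% of the length of 289 members in ESC (40.0%, against 64.2% of all domains) and of 157 in iPSC (21.7%, against 47.9%). With stricter peaks alone (−log10 q of at least 10 in the lists of H3K4me3 and H3K27ac and of at least 3 in the others), 1369 domains met the rule, and H3K27ac was at 15.4% of them in ESC and 8.33% in iPSC.

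Members lay between the domains bivalent in both and those without H3K27me3. Domains bivalent in both had H3K27ac at 33.1% in ESC and 18.9% in iPSC. Members exceeded them by 30.3 points in ESC (interval 26.5 to 34.0) and by 26.98 points in iPSC (interval 23.2 to 30.8). Domains without H3K27me3 had H3K27ac at 91.6% in ESC and 79.4% in iPSC, so that members were below them by 28.2 and 33.5 points.

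The 1586 ESC-bivalent domains with a small share of iPSC H3K27me3 had H3K27ac at 61.5% in ESC and 43.7% in iPSC. Over all widths the members' shares were higher by 1.959 points (interval −2.33 to 6.16) and 2.15 points (interval −2.21 to 6.53), and both intervals include 0. Those domains were wider, with a median of 3595 bp, and at like width the members' shares were further above theirs. In ESC the difference was 7.18 points (interval 0.797 to 13.5) at 2 to 3 kb, 10.4 points (interval 3.44 to 16.97) at 3 to 5 kb and 13.8 points (interval 4.43 to 19.0) at 5 kb or more. In iPSC it was 5.18 points (interval −0.839 to 11.2), 12.99 points (interval 5.63 to 20.2) and 10.4 points (interval −2.70 to 21.1). The 1175 domains bivalent in iPSC only had 63.8% in ESC and 50.2% in iPSC. The 2375 domains with ESC H3K27me3 over less than 25% and none in iPSC, which are the members' counterpart below the coverage limit, had 85.1% and 69.8%.

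**Figure D4:**
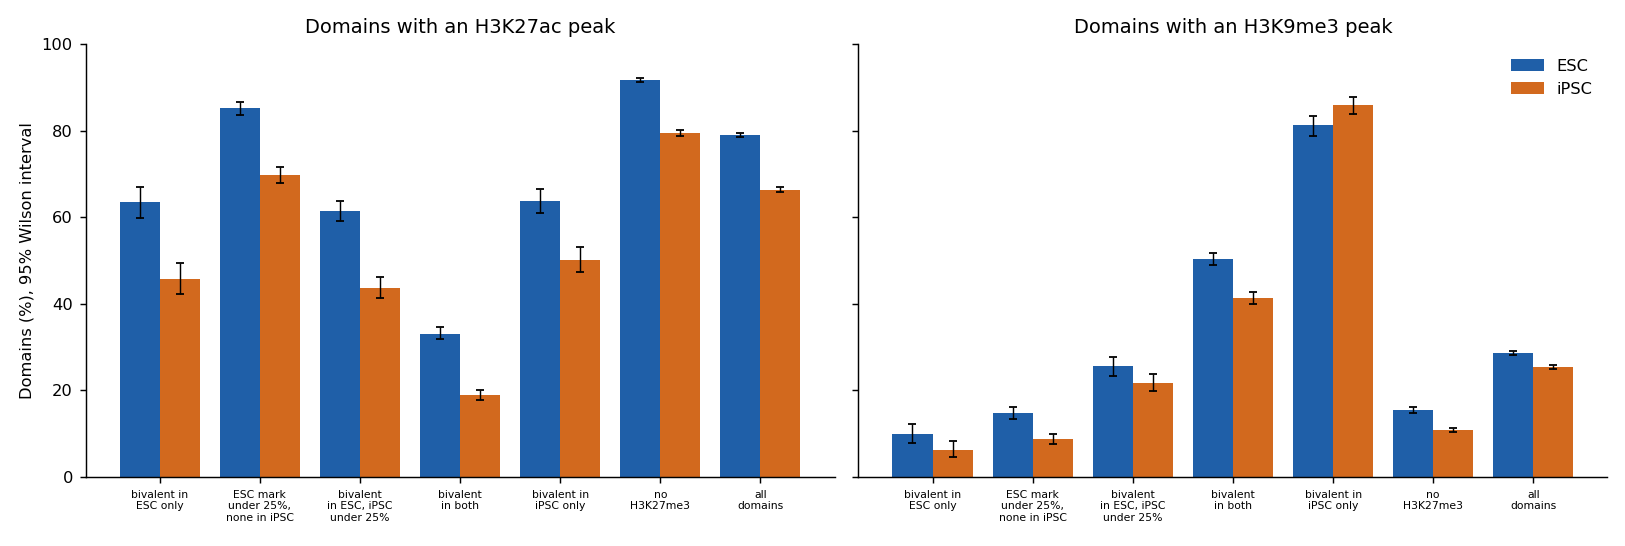
Percent of domains with an H3K27ac peak (left) and an H3K9me3 peak (right) in ESC (blue) and iPSC (orange), by class of domain, with 95% Wilson intervals. Members (bivalent in ESC only) had H3K27ac at 63.4% and 45.8%, between domains bivalent in both and domains without H3K27me3, and H3K9me3 at 9.83% and 6.23%, the lowest bar of each colour in the right panel.

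The order of members above domains bivalent in both held in each width group. Among members of 2 to 3 kb, 54.0% had ESC H3K27ac and 36.6% iPSC H3K27ac, against 29.1% and 14.3% of the domains of that width bivalent in both. Among members of 3 to 5 kb the shares were 71.7% and 54.7%, against 29.4% and 15.0%. Among the 60 members of 5 kb or more they were 95% and 73.3%, against 40.1% and 26.3%. Acetylation was thus more frequent in wider members, which was not particular to them. From the narrowest to the widest group, ESC-bivalent domains with a small share of iPSC H3K27me3 had ESC H3K27ac at 46.8%, 61.2% and 81.2%. Domains without H3K27me3 had it at 89.0%, 95.2% and 99.1%. Domains bivalent in iPSC only did not rise throughout, at 58.9%, 72.6% and 68.9%. The level of acetylation thus differed between classes, and all domains pool them. Over all domains acetylation varied little with width. From the narrowest to the widest group it was at 78.9%, 79.95% and 76.8% in ESC and 64.5%, 68.6% and 67.2% in iPSC. Members of 5 kb or more therefore lay above all domains of their width, while those of 2 to 3 and 3 to 5 kb lay below.

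Acetylation was less frequent among the few members that ESC H3K27me3 covered over at least 75%. ESC H3K27ac was found at 66.5% of members covered by 25 to 50%, at 61.3% of those covered by 50 to 75% and at 38.5% (interval 24.9 to 54.1%) of the 39 covered by 75% to under 100%. The iPSC shares of the same members were 50%, 38.0% and 23.1%. Of the 13 members covered whole, 38.5% (interval 17.7 to 64.5%) had H3K27ac in ESC and 30.8% (interval 12.7 to 57.6%) in iPSC. Members were also compared with domains bivalent in both at like ESC strength. In the lowest of the 5 groups by −log10 q, which held 465 members, 67.3% of members and 55.2% of domains bivalent in both had ESC H3K27ac, and 46.7% and 30.9% had iPSC H3K27ac. In the next group (197 members) the values were 59.4% and 47.8% in ESC and 46.7% and 26.7% in iPSC, and in the middle group (41 members) 53.7% and 32.8%, and 39.0% and 17.0%. The highest pair of groups held 11 and 8 members. Of the 11, 5 were acetylated in each list, and of the 8, 1 was.

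Within the acetylated members, the acetylated and trimethylated stretches of ESC were partly apart. At 259 of the 458 members with ESC H3K27ac (56.6%), the H3K27ac and H3K27me3 peaks shared base pairs. H3K27me3 held 30.5% of the ESC H3K27ac base pairs there and 41.2% of all base pairs of these 458 domains. H3K27ac thus lay on H3K27me3 less than the domains at large did, which was not particular to the members. In acetylated ESC-bivalent domains with a small share of iPSC H3K27me3 these values were 29.1% and 44.9%. In acetylated domains bivalent in both they were 46.9% and 71.2%. The peaks of both marks shared base pairs at 55.6% of the former and 71.1% of the latter. In the 301 members acetylated in both lists, H3K27ac spanned a median of 526 bp in ESC and 321 bp in iPSC, and was longer in ESC in 231 (76.7%). The same order was found in 80.6% of all domains acetylated in both lists, so the longer ESC stretch was not particular to the members.

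Counting peaks of all 4 marks, the commonest ESC state of members was H3K4me3 with H3K27me3 and H3K27ac, at 401 members (55.5%, against 18.2% of all domains), followed by H3K4me3 with H3K27me3 at 250 (34.6%, against 8.83%). In iPSC, 371 members (51.4%) had H3K4me3 alone, against 11.4% of all domains and 18.5% of the domains without H3K27me3. Another 306 members (42.4%) had H3K4me3 with H3K27ac in iPSC, against 36.4% of all domains and 70.6% of those without H3K27me3. The rule asks for H3K27me3 in ESC and for none in iPSC, so the shares of these 4 states are raised by construction against all domains. Of the 250 members with H3K4me3 and H3K27me3 in ESC, 216 had H3K4me3 alone in iPSC and 29 had H3K4me3 with H3K27ac. Of the 401 that were also acetylated in ESC, 251 had H3K4me3 with H3K27ac in iPSC and 136 had H3K4me3 alone. Most members thus had the same H3K27ac call in both lists, which was not particular to them. Of all 24258 domains with an ESC H3K27ac peak, 19773 had one in iPSC too, and of the 458 such members 301 did. The absence of iPSC H3K27me3 is set by the rule.

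H3K9me3 was scarce at members in both cell types. An ESC H3K9me3 peak overlapped 71 members (9.83%, interval 7.87 to 12.2%), against 28.6% of all domains, and an iPSC peak overlapped 45 (6.23%, interval 4.69 to 8.24%), against 25.4%. It was in both lists at 26 members (3.60%, against 20% of all domains), in ESC alone at 45 (6.23%, against 8.54%) and in iPSC alone at 19 (2.63%, against 5.32%). Domains bivalent in both had H3K9me3 at 50.3% in ESC and 41.4% in iPSC, 40.5 points (interval 37.7 to 43.0) and 35.2 points (interval 32.7 to 37.3) above the members. Domains bivalent in iPSC only had 81.2% and 86.0%. Domains without H3K27me3 had 15.4% and 10.9%. Domains with ESC H3K27me3 under 25% and none in iPSC had 14.7% and 8.76%. Members differed from these by −4.86 points (interval −7.32 to −2.11) in ESC and −2.53 points (interval −4.48 to −0.251) in iPSC. The iPSC difference was −1.14 points (interval −3.79 to 2.01) at 2 to 3 kb and −4.83 points (interval −7.75 to −0.975) at 3 to 5 kb. At 5 kb or more it was 0.349 points (interval −5.99 to 10.8). The rule was also applied without the H3K27me3 peaks that overlap H3K9me3 in their own cell type, and 863 domains met it. There the order of the cell types turned, with H3K9me3 at 10.5% in ESC and 25.1% in iPSC. That setting lets in domains whose iPSC H3K27me3 peaks overlap iPSC H3K9me3, and drops ESC H3K27me3 peaks on ESC H3K9me3. The turned order is thus favoured by construction and is no result about the members.

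The absence of iPSC H3K27me3, which the rule demands, moves with H3K9me3 over all domains. Domains with no iPSC H3K27me3 peak had H3K9me3 at 15.1% in ESC and 10.4% in iPSC, and those with one at 44.1% and 42.6%. The members' shares lay below both pairs of values. In the lowest of the 5 groups by ESC −log10 q, 9.68% of members and 47.9% of domains bivalent in both had ESC H3K9me3, and the iPSC shares were 5.81% and 45.0%. At the members' centres H3K9me3 covered 1.07% of the sequence in ESC and 0.687% in iPSC, below the 7.21% and 4.75% found 15 to 20 kb away. This dip was not particular to members. At domains without H3K27me3 the central values were 1.84% in ESC and 1.16% in iPSC, against 6.82% and 4.78% at that distance.

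Members were spread over all 20 chromosomes. They were 1.73% (chromosome 3) to 2.85% (chromosome 16) of the domains of a chromosome, with a mean of 2.34% ± 0.335 (SD, n = 20 chromosomes). Of the ESC-bivalent domains they were 7.49% (chromosome 19) to 13.7% (chromosome 2), with a mean of 10.7% ± 1.71 (SD, n = 20 chromosomes). Another member lay within 50 kb of 78 members (10.8%), while a member lay within 50 kb of 5.05% of all domains. A domain bivalent in both cell types lay within 50 kb of 231 members (32.0%), against 22.0% of all domains and 15.9% of domains without H3K27me3. Members thus lay closer to each other and to shared bivalent domains than domains in general did. Nearness to shared bivalent domains was not particular to members. Such a domain lay within 50 kb of 30.5% of ESC-bivalent domains with a small share of iPSC H3K27me3. It did so for 41.3% of the domains bivalent in both. A member lay within 50 kb of 7.82% and 6.85% of these classes.

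The coordinates that follow are those of the deposited lists (genome build not given in the sources used here). No gene is assigned to them. The member with the most ESC H3K27me3 base pairs was chr8:67417194-67422967, 5.77 kb wide and covered whole by 1 ESC H3K27me3 peak with an authors' fold of 5.47 and a −log10 q of 8.13. Its H3K4me3 coverage was 68.2% in ESC and 71.7% in iPSC, and H3K27ac covered 5.85% and 8.33%. The nearest iPSC H3K27me3 peak was 2.04 kb away, and H3K4me3 and H3K27ac differed by under 5 points between the lists.

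The next was chr7:113824786-113831016, 6.23 kb wide and covered over 92.5% in a Polycomb domain of 24.0 kb. Its H3K27ac coverage was 10.4% in ESC and 13.7% in iPSC. The member chr5:85382968-85387607 (4.64 kb) was covered over 95.2%, had H3K4me3 over 84.2% in ESC and 85.8% in iPSC, and had H3K27ac over 3.90% in ESC alone. The member chr2:58344242-58349963 (5.72 kb, 72.9% covered) also had H3K27ac in ESC alone, over 6.68%. These 4 members had H3K4me3 coverage within 5 points between the lists and differed in whether iPSC had an H3K27ac peak.

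Of the other 4 in this group, chr1:159823705-159828818 was far from any iPSC H3K27me3 peak, at 69.6 kb. ESC H3K27me3 covered 79.3% of its 5.11 kb, and H3K27ac covered 16.8% in ESC and 8.45% in iPSC. The member chr6:170305971-170312986 (7.02 kb, 56.7% covered) was the one of the 8 with H3K9me3, over 4.90% in ESC and 7.18% in iPSC. The member chr4:41103633-41111052 was the widest of the 8, at 7.42 kb, with ESC H3K27me3 over 52.7% and H3K27ac over 15.0% in ESC and 6.08% in iPSC.

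The member chr14:34948979-34952954 had the strongest ESC H3K27me3 of all members, with an authors' fold of 9.28 and a −log10 q of 22.2, in a Polycomb domain of 41.4 kb. Its 3.98 kb were covered whole in ESC, and an iPSC H3K27me3 peak began 0.857 kb away. H3K4me3 covered 22.2% of it in ESC and 58.1% in iPSC, and it had no H3K27ac peak in either list. It was thus a site of strong ESC H3K27me3 at which H3K4me3 spanned more of the domain in iPSC, in contrast to the members at large.

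**Figure D5:**
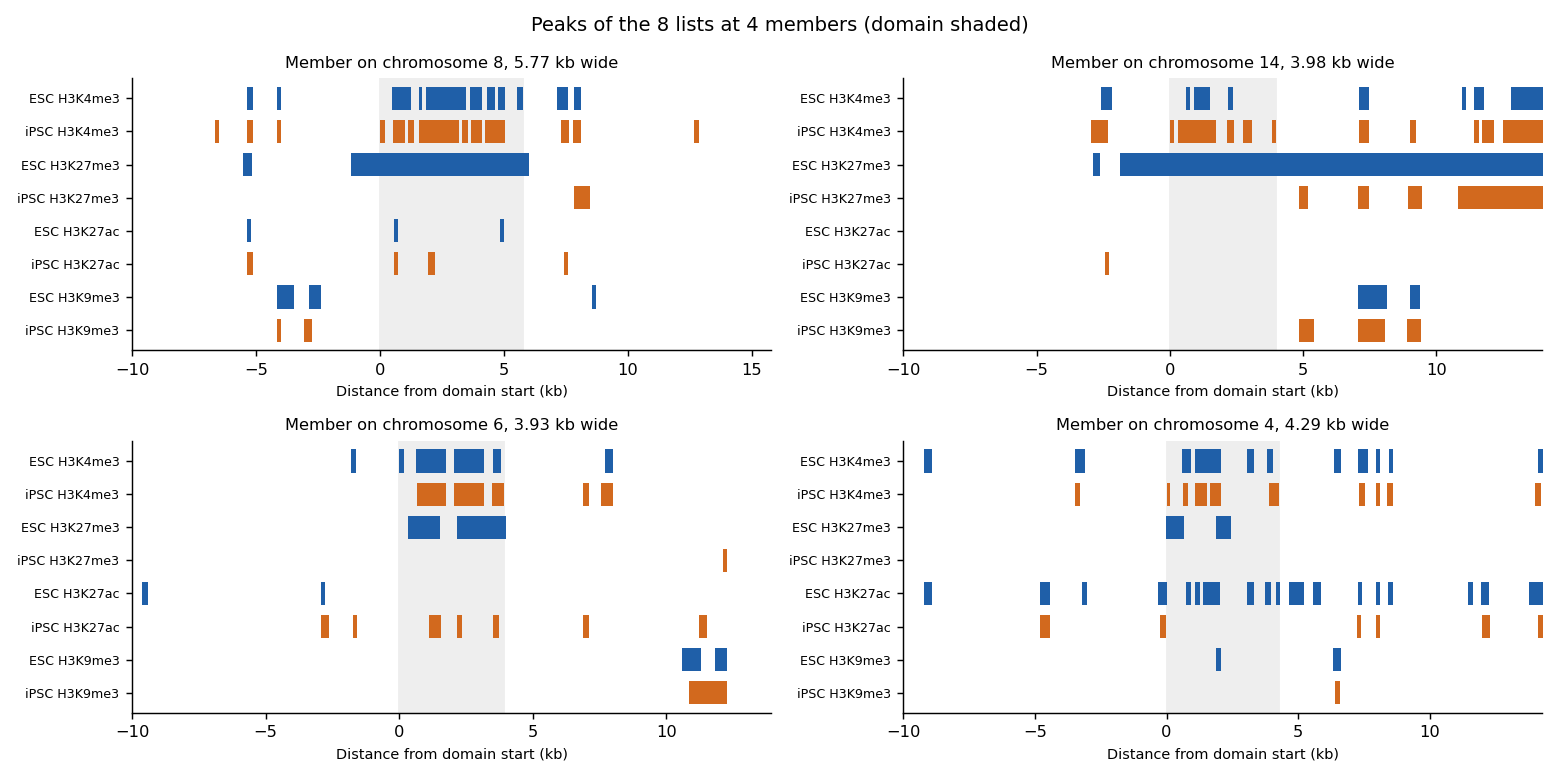
Peaks of the 8 lists at 4 members, drawn to scale as distance in kb from the domain start, with the domain shaded, ESC in blue and iPSC in orange. The chromosome 8 member (5.77 kb) is covered whole by 1 ESC H3K27me3 peak, the chromosome 14 member (3.98 kb) lies in an ESC Polycomb domain of 41.4 kb with iPSC peaks beside it, the chromosome 6 member (3.93 kb) has H3K27ac in iPSC alone and the chromosome 4 member (4.29 kb) has it in ESC alone.

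At 30 members H3K27ac was called in iPSC and not in ESC. The longest such stretch was at chr6:7144795-7148722, where iPSC H3K27ac covered 22.4% (881 bp) of a domain that ESC H3K27me3 covered over 75.6%. Its H3K4me3 coverage was 69.8% in ESC and 67.3% in iPSC. The next 4 were chr4:111622464-111625322 with 16.5% (472 bp), chr17:49628998-49632773 with 11.97% (452 bp), chr13:4811741-4815189 with 11.8% (408 bp) and chr11:7324499-7328427 with 9.16% (360 bp). None of these 5 had an H3K9me3 peak in either list. At chr13:4811741-4815189 H3K4me3 coverage was 66.0% in ESC and 90.4% in iPSC, while at chr4:111622464-111625322 it was 78.0% and 66.1%, so the acetylated stretch in iPSC came with H3K4me3 differences of either sign.

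The reverse, H3K27ac in ESC alone, was found at 157 members and reached longer stretches. At chr4:43434823-43439112, ESC H3K27ac covered 39.2% (1681 bp) and ESC H3K27me3 29.7% of the domain, and neither mark was called in iPSC. H3K4me3 remained there over 36.5% in iPSC against 41.9% in ESC. The next 4 by length were chr4:163261667-163264899 (1039 bp), chr16:52703117-52705592 (1017 bp), chr2:50906530-50908988 (926 bp) and chr13:96444559-96448007 (872 bp). The −log10 q of the strongest ESC H3K27me3 peak was 3.62 in the first, above the members' upper quartile of 3.43, and 1.88, 1.82, 1.55 and 1.75 in the others, below their median of 2.66. The absence of both modifications of lysine 27 from the iPSC lists in these 5 domains follows from how they were chosen.

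The 5 members with the highest iPSC H3K9me3 coverage were chosen by that value, so the order of the cell types in them is no result. At chr1:212985326-212987479 H3K9me3 covered 38.9% in ESC and 34.5% in iPSC, and at chr15:88425743-88429078 it covered 14.5% and 28.5%. At chr5:148606486-148609029 it was called in iPSC alone, over 24.5%, and H3K4me3 coverage there was 63.6% in ESC and 25% in iPSC. The other two were chr4:80697490-80699767 (24.5% in iPSC, 6.37% in ESC) and chr4:86192084-86194750 (23.1% and 15.3%). All 5 had H3K27ac peaks in both lists, so H3K9me3 here lay in domains that were also acetylated.

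The 3 runs with the most members within 200 kb differed in length and in the domains between the members. At chr13:89271072-89285528, 3 of 3 domains within 14.5 kb were members. Across that stretch ESC H3K27me3 peaks covered 52.0% and iPSC peaks 0%, H3K4me3 covered 41.7% and 20.7%, and H3K27ac 18.7% and 7.79%. H3K9me3 covered 3.04% in ESC and 0% in iPSC. All 4 marks thus covered less of the stretch in iPSC, and for H3K27me3 the rule sets this within the 3 domains. At chr15:36703478-36879080, 4 of 5 domains were members, in a stretch of 176 kb with sparse H3K27me3 (2.96% in ESC, 0.751% in iPSC). At chr6:135948636-136107500, 4 of 12 domains within 159 kb were members, 3 were bivalent in both and 2 were bivalent in ESC with iPSC H3K27me3 under 25%, and H3K27me3 covered 24.0% in ESC and 6.76% in iPSC.

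Domains just inside and just outside the 25% limit differed little in coverage. The 3 members nearest above it were chr11:125924021-125926638 (25.02%), chr14:52808883-52811823 (25.09%) and chr20:10619151-10622478 (25.12%). Just below it lay chr2:22551716-22555460 (24.99%), chr10:222996-228001 (24.99%) and chr5:179040503-179043573 (24.94%). Using a limit of 10% gave 1961 members and a limit of 50% gave 194. Which domains were members also depended on the peak threshold: with firm peaks alone (−log10 q of at least 5 in the lists of H3K4me3 and H3K27ac and of at least 2 in those of H3K27me3 and H3K9me3), 1037 domains met the rule, and 382 of the 722 members overlapped one of them.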

How the data were processed

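Peak lists of 4 histone marks in baboon ESC and iPSC were analysed. The tools named in the submitters' processing notes are deepTools, MACS2, Picard and SAMtools 1.10. The aligner, the build, the thresholds and the pooling of libraries were not given in the sources used here. Each deposited list gives, for every peak, the fold enrichment over background, a ratio from the peak caller the authors ran, and the −log10 of its p and q. Fold and −log10 q served to describe or filter peaks inside 1 list, and the 8 columns of −log10 p were not used. No read counts were used, so depth is unknown.

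Domains, coverage and distances were computed with Python 3.11.15, numpy 2.4.6 and pandas 2.3.3; the interval code was tested on simulated data and against bedtools, which found the same 722 members. Peaks counted as overlapping at 1 bp. Starts are printed 1-based. No p-value was computed. The members and the lists of regions were chosen with earlier results of these data known. The 5 equal groups by strength, the class below the coverage limit, the Newcombe intervals and the X chromosome were added after the values were seen.

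Regions named are the 8 members with the most ESC H3K27me3 base pairs, the 5 without ESC H3K27ac with the most iPSC H3K27ac and the 5 of the reverse, the 5 with the highest iPSC H3K9me3 coverage, the 3 nearest on each side of the 25% limit, and the 3 runs with the most members within 200 kb. The gene table given is of the assembly Panubis1.0. Its last gene and the last peak of a chromosome ended over 5 Mb apart on 12 of 20 chromosomes. The planned check by gene starts in H3K4me3 domains was not run. The lists were not joined to genes and no sequence is shown.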

Additional observations from a re-analysis of the deposited data

Results flagged for a closer look

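The X chromosome was outside the rule and its domains enter no comparison of the report. Applying the same rule there, 236 of its 1015 H3K4me3 domains (23.3%, 95% Wilson interval 20.8 to 25.9%) had H3K4me3 in both lists, ESC H3K27me3 over at least 25% and no iPSC H3K27me3 peak, against 2.35% on chromosomes 1 to 20. These were 61.8% of the 382 ESC-bivalent domains of the X. The result is listed because the X was not used in the report; its difference from the other chromosomes has no replicate check. The 236 domains of the X had a median width of 2804 bp and a median ESC H3K27me3 coverage of 67.7%. H3K9me3 overlapped 84.7% of them in ESC and 16.9% in iPSC, and H3K27ac overlapped 54.2% in ESC and 47.0% in iPSC. Shares of these marks over all 1015 domains of the X are not given here. The values are therefore not shown to be particular to the 236.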

How the results depend on the processing

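The number of members rested on the rule's limits. It was 353 with touching peaks alone joined, 1689 and 307 with width limits of 1 and 3 kb, 1961 and 194 with coverage limits of 10 and 50%, 457 with no iPSC H3K27me3 peak within 5 kb, 1369 with stricter peaks and 1872 with the longer H3K27me3 list cut to the length of the shorter. List lengths for that cut were counted over all chromosomes. Of the 722 members, 119 overlapped a member under stricter peaks.

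ESC H3K27ac was at 58.1% of members with touching peaks joined, 56.4% with joining within 3 kb, 53.3% and 76.2% at width limits of 1 and 3 kb, and 75.3% and 55.2% at coverage limits of 10 and 50%. It was 45.5% with firm peaks, 15.4% with stricter peaks, 58.0% with the list cut, 59.6% with H3K27me3 on H3K9me3 left out and 40.0% where H3K27ac had to cover at least 10% of the domain. iPSC H3K27ac was 38.7% with joining within 3 kb, 34.8% and 58.3% at width limits of 1 and 3 kb, 58.1% and 34.5% at coverage limits of 10 and 50%, 27.3% with firm and 8.33% with stricter peaks, 39.9% with the list cut and 21.7% at 10% of the domain. The ESC share was above the iPSC share in 14 of 14 settings, by 7.09 to 20.6 points.

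ESC H3K9me3 was 2.83% with touching peaks joined, 13.7% with joining within 3 kb, 12.6% at 10% coverage, 7.66% with none within 5 kb, 17.6% with the list cut and 5.26% at 10% of the domain. iPSC H3K9me3 was 2.83% with touching peaks joined, 8.85% with joining within 3 kb, 4.64% at 50% coverage, 4.24% with firm and 2.99% with stricter peaks, 12.8% with the list cut, 25.1% with H3K27me3 on H3K9me3 left out and 3.60% at 10% of the domain. The ESC share was the higher in 12 of 14 settings; it was equal with touching peaks joined and lower with H3K27me3 on H3K9me3 left out. The causes of these shifts were not tested, beyond the changed membership that each setting makes by construction.

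No paired analysis was possible because each cell type and mark has 1 peak list and no result comes from a test. For the same reason no replicate was left out. Unknown depth limits every absence of a peak, which is a missing call and not shown to be a missing mark.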
